A study of Mus musculus with 24 samples.

Results

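The effect of the anti-PTN antibody 3B10 that 4T1 and *MMTV-PyMT* mammary tumors share was measured as the difference between 3B10 and C44 tumors within each model, averaged over the models. Its members are the 12 tumor samples of the 24 samples of the series, chosen by their labels as tumors treated with either antibody. 4T1 cells, a mouse triple-negative mammary carcinoma line, were implanted in the mammary fat pad of female BALB/c mice that were 8 wk old, and treatment began once tumors could be felt. *MMTV-PyMT* female mice on the FVB/N background, whose tumors arise from polyoma middle T antigen driven by the MMTV promoter in the mammary gland, were treated between 8 and 12 wk of age. The 4 groups were 4T1 tumors with C44, a mouse IgG control, 4T1 tumors with 3B10, a mouse monoclonal antibody against PTN, and PyMT tumors with either antibody, with 3 tumors in each. Mice received 15 mg/kg in 2 doses a week. All hosts kept their own immune system, so each sample of whole tumor holds leukocytes, vessels and stroma as well as tumor cells.

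Pleiotrophin (PTN) is a secreted, heparin-binding growth factor, related to midkine, that is made mainly in the developing nervous system and in tissues under repair. It binds the glycosaminoglycan chains of receptors such as PTPRZ1 and the syndecans, and its binding to PTPRZ1 blocks the phosphatase activity of that receptor, which raises tyrosine phosphorylation of its substrates. In breast tumors PTN is made by cancer cells and by stromal cells, and it has been tied to vessel growth, inflammation and metastasis.

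The values were log2 expression levels of 12091 genes. In the PyMT tumors they were log2 CPM, read counts scaled to the size of the library, and the reads recovered on these genes came to 19061129, 19183476 and 18691650 in C44 tumors and to 16208858, 18356173 and 16199868 in 3B10 tumors. Every PyMT C44 library was thus larger than every PyMT 3B10 library, and the part of this difference in the PyMT results was not tested. The 4T1 values behaved as levels per gene length, since the 4T1 level minus the PyMT level in C44 tumors fell by 0.81 for each doubling of exon length over 10890 genes, so their read depth could not be recovered. For this reason no level was compared between models, and every difference was taken within a model.

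Of 6 mammary epithelial markers, *Krt8*, *Krt18* and *Epcam* were high in all 12 tumors. *Krt8* lay between 9.81 and 10.70 on the log2 scale, *Krt18* had a mean of 11.21 in 4T1 and 9.86 in PyMT tumors, and *Epcam* one of 8.71 and 10.16. *Cdh1* had a mean of 6.68 in 4T1 and 9.14 in PyMT tumors. *Krt19* and *Cldn7* had means of 4.69 and 5.16 in 4T1 and of 7.86 and 7.71 in PyMT tumors, on different scales. *Krt19* was below the median of the genes tested in 4 of 6 4T1 tumors and *Cldn7* in 2 of 6, the lowest being *Krt19* at 3.92 in C44 3, where that median was 4.71, and *Cldn7* at 4.17 in 3B10 2, where it was 4.89. The pan-leukocyte marker *Ptprc* had a mean of 4.23 in 4T1 and 4.21 in PyMT tumors, so leukocyte RNA was present in both. The T cell markers *Cd3e* and *Cd3g* were too low in PyMT tumors to be tested, with means of −1.42 and −0.33.

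Libraries 4T1 C44 3 and 4T1 3B10 1 stood apart from the other 4T1 tumors. Across genes, they correlated with each other at 0.985, whereas C44 3 correlated with C44 1 at 0.971 and 3B10 1 correlated with 3B10 2 at 0.967. In PyMT tumors 3B10 3 had the lowest correlations, between 0.948 and 0.956, against 0.957 to 0.977 among the other PyMT tumors. Skeletal muscle genes also differed between the 4T1 groups. All 9 tested genes of a muscle list had a mean above that of C44 in 4T1 tumors, and 7 of them were higher without overlap between the 4T1 groups, against 763 of all 10890 genes. The summed level of the 14 muscle genes in the table, off the log scale, was 187, 195 and 195 in 4T1 C44 tumors and 279, 533 and 718 in 4T1 3B10 tumors, with *Eno3* the most abundant. In PyMT tumors this sum was 140, 130 and 72.7 with C44 and 120, 134 and 97.3 with 3B10, so the groups overlapped. *Acta1*, the actin of muscle fibers, had log2 levels of 1.23, −0.53 and −0.44 in 4T1 C44 tumors, close to the lowest value of −0.98, and of 3.49, 6.25 and 6.06 with 3B10. The part of muscle RNA in the 4T1 results was not tested.

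Epithelial markers had higher means in the same 4T1 3B10 tumors. All 6 epithelial markers had a higher mean with 3B10 in 4T1 tumors, and all 6 had a lower mean in PyMT tumors. *Epcam* was 7.82, 8.42 and 8.57 in 4T1 C44 tumors and 9.34, 9.21 and 8.88 in 4T1 3B10 tumors, without overlap, a difference of 0.87. *Krt8* and *Krt18* differed by 0.40 and 0.45 in 4T1 tumors, again without overlap, while the leukocyte marker *Ptprc* differed by −0.72. The summed level of the 35 luminal genes in the table was 5407, 5525 and 6153 in 4T1 C44 and 8014, 7395 and 7568 in 4T1 3B10 tumors, led by *Krt18*. In PyMT tumors the luminal sum was 11869, 10920 and 9834 with C44 and 10175, 10794 and 9647 with 3B10, with overlap. The part of a larger share of epithelial RNA in the other 4T1 differences was not tested.

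The first comparison asked which genes differed with 3B10 in the same way in both models. The fit tested 10890 genes that reached at least 1 above the lowest value of the sample, off the log scale, in at least 3 of the 6 tumors of each model. With limma and Benjamini-Hochberg adjustment, 0 genes had an adjusted p under 0.05, and the smallest adjusted p was 0.581. At an unadjusted p under 0.05, limma gave 738 genes, of which 535 were higher with 3B10, or 4.91% of the genes tested, and 203 were lower, or 1.86%. The median standard error of an average log2 difference was 0.14 over the 12 tumors. With the tumors of a model scaled to one median, the split was 445 higher and 296 lower. Leaving out any 1 tumor gave 341 to 781 higher and 126 to 343 lower genes at the same threshold. Without 4T1 C44 3 and 4T1 3B10 1, a setting chosen after seeing the data, 720 genes were higher and 301 lower at an unadjusted p under 0.05, and the smallest adjusted p from limma was 0.243.

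A stricter description asked for every 3B10 tumor on one side of every C44 tumor in both models. By this count 78 genes were higher with 3B10 (0.716% of the genes tested) and 17 were lower (0.156%). Scaled to one median within each model, the tumors gave 63 higher and 25 lower. Another 27 genes had groups that did not overlap in either model but moved in opposite directions. On average 42.8% of genes were lower. The sign alone matched in 57.7% of genes, with 35.6% higher in both models and 22.1% lower in both, and the differences of the models correlated across genes at 0.176, genes not being independent replicates. The models share no samples. The median log2 difference over all genes tested was 0.03 on average, 0.01 in 4T1 and 0.05 in PyMT tumors.

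**Figure D1:**
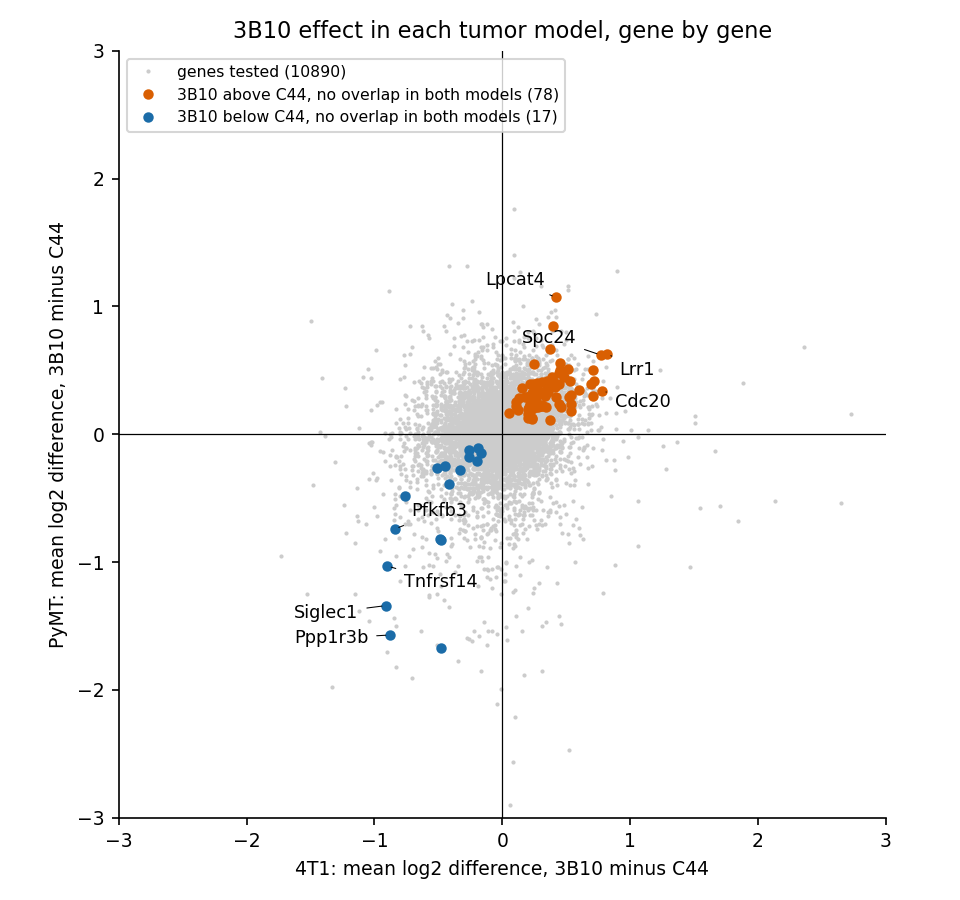
Each point is a gene, placed by its mean log2 difference between 3B10 and C44 tumors in 4T1 (horizontal axis) and PyMT (vertical axis). Orange and blue points are the 78 and 17 genes whose 3B10 tumors all lie above or all below the C44 tumors in both models; 3 genes lie beyond the axes, which end at 3 in either direction.

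Among the lists, mitosis had the highest average median after skeletal muscle. A list of 45 mitosis genes, covering cyclins, spindle checkpoint proteins and kinetochore subunits, was tested in full. All 45 were higher in both models, against 35.6% of all genes, 23 of the 45 had an unadjusted p under 0.05, against 4.91%, and 6 had no overlap in both models, against 0.716%. The list median was 0.40 on average, 0.48 in 4T1 and 0.32 in PyMT tumors, against 0.03, 0.01 and 0.05 over all genes tested. These 6 genes were *Spc24*, *Ube2c*, *Cdc20*, *Cdk1*, *Cdca3* and *Cdca8*, the last 3 chosen for naming after their values were seen.

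*Spc24* (ENSMUSG00000074476, GRCm38 chr9:21755442-21760303, minus strand), a subunit of the NDC80 complex that ties kinetochores to microtubules, had the smallest p of the fit. Its log2 level was 4.80, 4.60 and 4.63 in 4T1 C44 tumors and 5.06, 5.70 and 5.60 in 4T1 3B10 tumors. In PyMT tumors it was 4.38, 4.34 and 4.07 with C44 and 5.02, 4.78 and 4.85 with 3B10. The 3B10 tumors were above the C44 tumors throughout, with an average log2 difference of 0.70 ± 0.12 (SE, 12 tumors), or 1.62-fold, and a limma adjusted p of 0.581. *Ube2c*, the ubiquitin-conjugating enzyme of the anaphase-promoting complex, was 5.49, 5.52 and 5.33 with C44 and 5.76, 6.25 and 6.42 with 3B10 in 4T1 tumors. In PyMT tumors *Ube2c* was 5.93, 5.95 and 5.94 with C44 and 6.25, 6.46 and 6.27 with 3B10. Its C44 tumors lay within a narrow band in both models and its 3B10 tumors all lay above it, by 0.54 ± 0.11 on average.

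*Cdc20*, the activator of the same complex, was 5.73, 6.05 and 5.83 in 4T1 C44 and 6.09, 6.80 and 7.05 in 4T1 3B10 tumors. In PyMT tumors *Cdc20* was 6.34, 6.52 and 6.45 with C44 and 6.81, 6.80 and 6.73 with 3B10. The average difference was 0.56 ± 0.15, with 0.78 in 4T1 and 0.34 in PyMT tumors. The following members were chosen after their values were seen. *Cdk1*, the kinase that starts mitosis (ENSMUSG00000019942, chr10:69335146-69352938, minus strand), was 6.60, 6.60 and 6.51 with C44 and 6.68, 7.07 and 7.28 with 3B10 in 4T1 tumors. In PyMT tumors *Cdk1* was 5.70, 5.87 and 5.71 with C44 and 6.13, 6.19 and 6.13 with 3B10. No 3B10 tumor overlapped the C44 tumors, and *Cdk1* was 1.33-fold higher on average. *Plk1*, a kinase of centrosome maturation and spindle assembly, was 1.42-fold higher on average, and its 4T1 groups overlapped. *Aurka*, the centrosomal Aurora kinase, was higher by 0.52 ± 0.17, and *Ccnb2*, a partner of CDK1, by 0.49 ± 0.15. *Mki67*, the most abundant member of the list in PyMT tumors, was higher by 0.35 ± 0.18 and had an unadjusted p above 0.05.

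The mean of the mitosis list in each tumor was set against the C44 mean of its model. It was 0.15, 0.19 and −0.34 in 4T1 C44 tumors and −0.08, 0.74 and 0.82 in 4T1 3B10 tumors. The 4T1 groups overlapped through 4T1 3B10 1, one of the libraries that stood apart. In PyMT tumors it was −0.25, 0.15 and 0.10 with C44 and 0.36, 0.29 and 0.30 with 3B10, so every 3B10 tumor lay above every C44 tumor. Without 4T1 C44 3 and 4T1 3B10 1 the list median was 0.45. In the 4T1 3B10 tumors the epithelial markers had higher means as well, with overlap for *Krt19*, *Cdh1* and *Cldn7*.

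*Cenpw*, *Cenpm*, *Cenpp* and *Cenpu*, which encode centromere proteins, were in no list and were among the 12 largest differences of the higher genes without overlap in both models, at 0.51, 0.57, 0.60 and 0.52 on average. *Cenpw* was 3.51, 3.56 and 3.73 in 4T1 C44, 3.96, 4.11 and 4.25 in 4T1 3B10, 2.88, 2.90 and 3.11 in PyMT C44 and 3.61, 3.55 and 3.29 in PyMT 3B10 tumors. Its difference was 0.51 in each model, the closest match between models among these genes.

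The promoters of 4 of these genes are shown because the genes of the mitosis list were higher in both models. The share of a list that holds a motif is set by which genes were listed, whatever their values with 3B10. In RefSeq promoters of 300 bases, from 250 before to 50 after the start of transcription, TTTGAA (the letters of the cell-cycle homology region) and CCAAT (the CCAAT box) were searched on both strands. These motifs, and those searched in other lists, were chosen after the values were seen. Of the 45 mitosis genes 38 were matched to a promoter, and 28 of them, or 73.7%, held TTTGAA, against 18.1% of all 27025 promoters of this length and 11.4% of those of the genes tested. CCAAT was held by 28 of the 38 as well, or 73.7%, against 37.9% of all promoters and 38.8% of those of the genes tested. Among the 78 genes higher without overlap, 66 were matched, of which 22.7% held TTTGAA and 43.9% held CCAAT. In the sequences below, read 5′ to 3′ on the strand of the gene in GRCm38.p6, capitals mark TTTGAA and the CCAAT box with their reverse complements. *Cdk1* lies at chr10:69352863-69353162 on the minus strand, with 2 matches to TTTGAA and 3 to CCAAT. *Ube2c* lies at chr2:164769679-164769978 on the plus strand, with 1 and 6 matches, of which a pair overlap. *Cdc20* lies at chr4:118437294-118437593 on the minus strand, with 1 and 2 matches. *Plk1* lies at chr7:122159185-122159484 on the plus strand, with 1 match to each. A match is a description and not a site or a cause.
Cdk1: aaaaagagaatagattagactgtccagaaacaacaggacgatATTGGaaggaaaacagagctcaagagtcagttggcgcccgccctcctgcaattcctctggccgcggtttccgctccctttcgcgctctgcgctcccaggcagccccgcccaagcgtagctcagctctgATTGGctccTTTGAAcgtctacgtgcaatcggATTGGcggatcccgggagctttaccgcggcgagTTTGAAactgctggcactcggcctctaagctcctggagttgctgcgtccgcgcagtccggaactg
Ube2c: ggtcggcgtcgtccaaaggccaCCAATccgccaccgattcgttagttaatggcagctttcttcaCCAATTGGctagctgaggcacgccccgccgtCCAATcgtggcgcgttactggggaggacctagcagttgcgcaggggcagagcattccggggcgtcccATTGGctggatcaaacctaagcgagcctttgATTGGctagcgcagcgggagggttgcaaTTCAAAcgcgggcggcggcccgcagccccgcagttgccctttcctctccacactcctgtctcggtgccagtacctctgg
Cdc20: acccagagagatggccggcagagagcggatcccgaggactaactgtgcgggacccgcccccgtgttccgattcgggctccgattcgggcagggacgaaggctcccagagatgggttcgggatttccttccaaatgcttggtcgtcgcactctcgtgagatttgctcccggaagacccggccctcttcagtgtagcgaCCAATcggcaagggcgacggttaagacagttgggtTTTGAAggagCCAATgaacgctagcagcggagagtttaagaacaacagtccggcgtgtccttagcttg
Plk1: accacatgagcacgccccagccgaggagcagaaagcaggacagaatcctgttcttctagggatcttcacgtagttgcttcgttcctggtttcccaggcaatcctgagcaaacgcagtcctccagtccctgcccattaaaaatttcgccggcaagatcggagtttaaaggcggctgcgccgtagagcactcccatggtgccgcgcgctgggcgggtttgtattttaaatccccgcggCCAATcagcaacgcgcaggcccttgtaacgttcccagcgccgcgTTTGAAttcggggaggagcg

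Genes of DNA synthesis had a higher median in both models as well. All 46 genes of a DNA replication list were higher on average, 43 of them in both models, and 19 had an unadjusted p under 0.05, or 41.3% against 4.91% of all genes. By the stricter count 0 of the 46 were without overlap in both models, against 0.716% of all genes. With 46 genes a count of 0 is near that share. The list median was 0.30, with 0.33 in 4T1 and 0.26 in PyMT tumors. *Gins1*, a subunit of the replicative helicase, was 4.40, 4.42 and 4.49 in 4T1 C44 tumors and 4.46, 4.88 and 5.16 with 3B10. In PyMT tumors *Gins1* was 3.39, 3.39 and 3.07 with C44 and 3.98, 3.56 and 3.69 with 3B10. The groups were apart in PyMT and overlapped through 4T1 3B10 1 in 4T1 tumors, and the average difference was 0.43 ± 0.13. *Dut*, which keeps uracil out of DNA, was higher by 0.33 ± 0.11, and *Pold1*, the catalytic subunit of polymerase delta, chosen after its values were seen, by 0.31 ± 0.11. *Dnmt1*, which copies DNA methylation and was the most abundant member in PyMT tumors, was at 0.20 ± 0.15, at 0.11 without 4T1 C44 3 and at 0.31 without 4T1 3B10 1.

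The mean of the DNA replication list was 0.11, 0.11 and −0.22 with C44 and −0.10, 0.56 and 0.50 with 3B10 in 4T1 tumors. In PyMT tumors it was −0.08, 0.12 and −0.03 with C44 and 0.33, 0.19 and 0.28 with 3B10, again without overlap. *Dnph1*, which removes a damaged nucleotide from the pool for DNA synthesis, and *Lrr1*, a substrate receptor that helps unload the replicative helicase, were outside the list and among the 12 largest differences. *Lrr1* (ENSMUSG00000034883, chr12:69168814-69179009, plus strand) was 2.65, 1.99 and 2.22 in 4T1 C44 tumors and 2.72, 3.22 and 3.38 with 3B10. In PyMT tumors *Lrr1* was 1.45, 1.77 and 1.31 with C44 and 2.19, 1.94 and 2.29 with 3B10. It was 1.65-fold higher on average and *Dnph1* was 1.42-fold higher.

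The letters TTTNNCGC, which resemble the binding element of E2F factors, were held by 15 of the 39 matched promoters of the DNA replication list, or 38.5%, against 5.27% of all promoters and 9.2% of those of the genes tested. In the mitosis list the same letters were held by 4 of 38, or 10.5%, and TTTGAA was held by 7 of the 39 replication promoters, or 17.9%. The promoters of *Orc1*, a subunit of the origin recognition complex, and *Mcm5*, a subunit of the helicase, are shown for this difference in letters between the lists. Capitals mark TTTNNCGC on either strand. *Orc1* lies at chr4:108579204-108579503 on the plus strand with 1 match, and *Mcm5* at chr8:75109259-75109558 on the plus strand with 2 matches that overlap. These genes were chosen after their values were seen, and their average differences were 0.49 ± 0.20 and 0.36 ± 0.17. *Mcm5* had an unadjusted p from limma above 0.05.
Orc1: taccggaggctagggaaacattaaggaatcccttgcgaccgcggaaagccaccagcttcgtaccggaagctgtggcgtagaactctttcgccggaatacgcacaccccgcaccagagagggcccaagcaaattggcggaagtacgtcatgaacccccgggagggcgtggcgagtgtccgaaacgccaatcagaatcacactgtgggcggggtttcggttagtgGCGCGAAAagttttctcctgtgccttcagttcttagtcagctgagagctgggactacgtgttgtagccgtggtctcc
Mcm5: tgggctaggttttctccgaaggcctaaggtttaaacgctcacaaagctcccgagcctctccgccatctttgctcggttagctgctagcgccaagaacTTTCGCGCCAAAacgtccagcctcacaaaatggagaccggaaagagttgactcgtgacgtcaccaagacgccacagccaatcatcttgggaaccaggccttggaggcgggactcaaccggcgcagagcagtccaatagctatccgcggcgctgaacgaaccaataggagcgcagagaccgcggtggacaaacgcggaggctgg

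**Figure D2:**
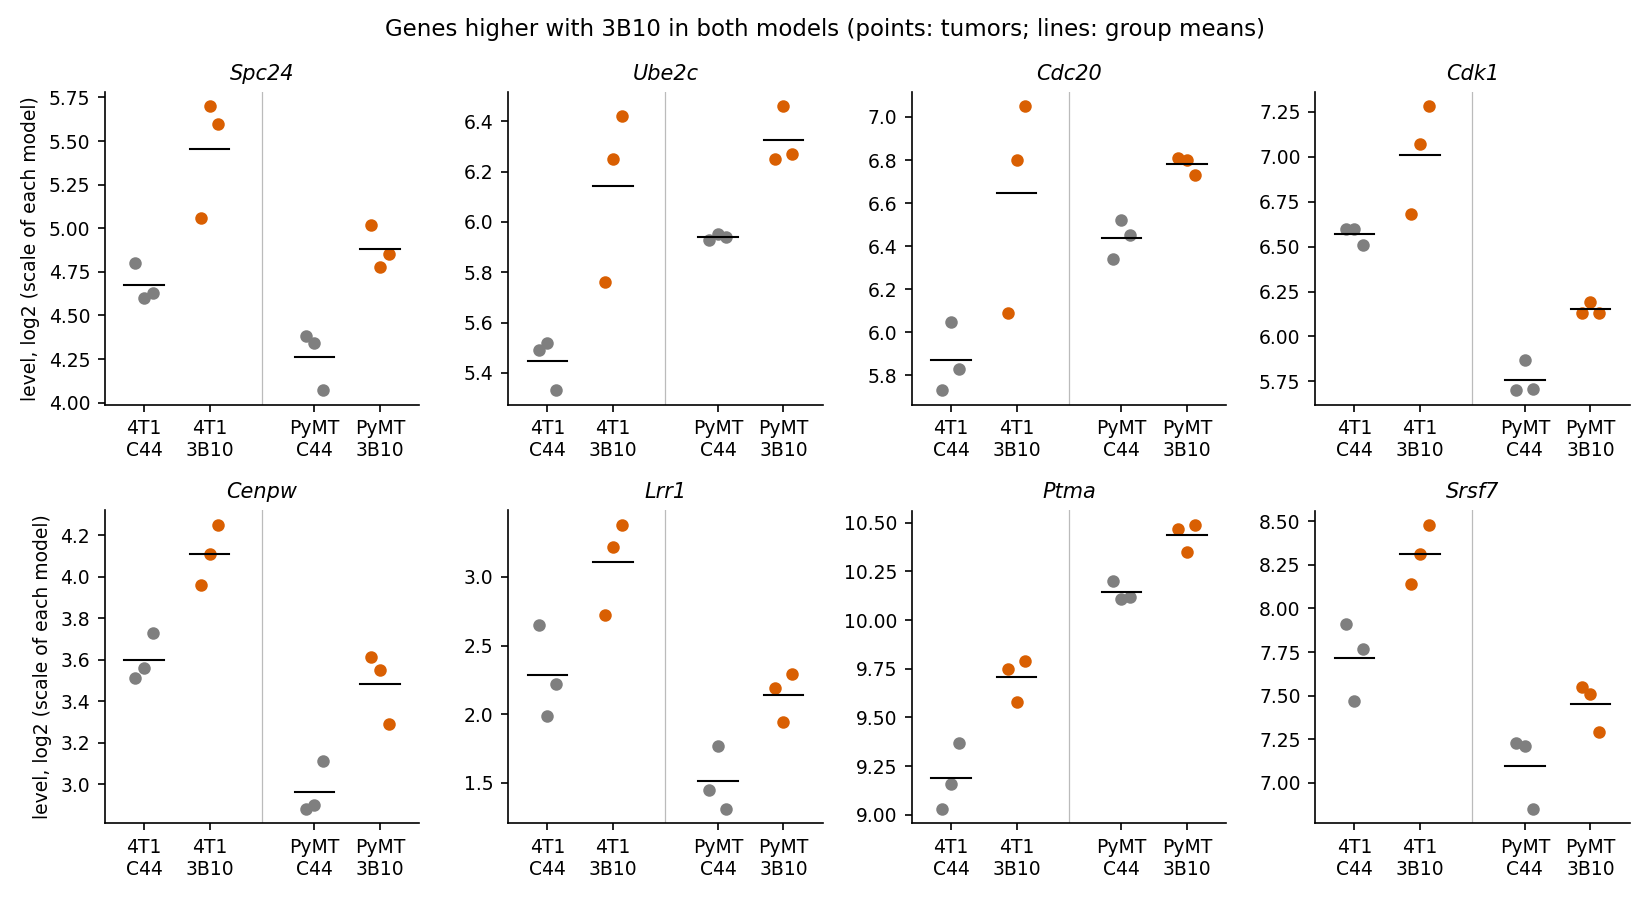
Log2 levels of 8 genes in each tumor (vertical axis), on the scale of each model, with C44 tumors in gray and 3B10 tumors in orange, 3 a group; lines are group means. In each panel every 3B10 tumor lies above every C44 tumor of its model, as for *Spc24* with 4.80, 4.60 and 4.63 against 5.06, 5.70 and 5.60 in 4T1 tumors.

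The following genes belonged to no list. *Gemin6*, which helps assemble splicing particles, was higher by 0.51 ± 0.13 without overlap in both models. *Srsf7* and *Tra2b*, which steer splice site choice, *Gar1*, of the particles that modify ribosomal RNA, *Rcc1*, the exchange factor for RAN, and *Ptma*, prothymosin alpha, were chosen after their values were seen. They were higher by 0.47, 0.39, 0.39, 0.47 and 0.41 on average, each without overlap in both models. *Ptma* was 9.03, 9.16 and 9.37 in 4T1 C44 and 9.75, 9.58 and 9.79 in 4T1 3B10 tumors, and 10.20, 10.11 and 10.12 in PyMT C44 and 10.47, 10.35 and 10.49 in PyMT 3B10 tumors. The largest average difference among the higher genes without overlap was that of *Lpcat4*, which remodels phospholipids. *Lpcat4* was higher by 0.75 ± 0.23, with 0.42 in 4T1 and 1.07 in PyMT tumors, where 3B10 3 reached 5.02 against 3.85 and 3.65 in the other 3B10 tumors. *Ydjc* was higher by 0.62 ± 0.23.

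Of 22 heat shock genes, 18 were higher on average and 14 in both models, or 63.6% against 35.6% of all genes, with a median of 0.19, and 5 were higher at an unadjusted p under 0.05, or 22.7% against 4.91%. The co-chaperone *Fkbp4* was the member without overlap in both models, at 7.42, 7.45 and 7.32 in 4T1 C44, 7.51, 7.94 and 7.77 in 4T1 3B10, 8.31, 8.07 and 8.23 in PyMT C44 and 8.35, 8.58 and 8.74 in PyMT 3B10 tumors. Its average difference was 0.35 ± 0.10. *Dnaja1*, a partner of HSP70, was also higher by 0.35. *Hspb8* and *Hspb1*, small heat shock proteins, were lower at −0.56 and −0.25 on average, with a positive difference in 4T1 tumors. Without 1 tumor *Hspb8* lay between −0.79 and −0.17, with −0.17 without PyMT 3B10 2 and −0.29 without PyMT C44 1, and *Hspb1* lay between −0.37 and −0.14, with −0.14 without PyMT 3B10 1 and −0.15 without PyMT C44 1. Of 73 genes of oxidative phosphorylation 69 were higher on average and 56 in both models, or 76.7% against 35.6% of all genes, with a median of 0.14, and 7 were higher at an unadjusted p under 0.05, or 9.59% against 4.91%. The complex I subunits *Ndufa5* and *Ndufb8* were higher by 0.33 ± 0.12 and 0.28 ± 0.10. Of 80 ribosomal protein genes 64 were higher on average and 53 in both models, or 66.2% against 35.6%, while 3 were higher at an unadjusted p under 0.05, or 3.75% against 4.91%. Their median was 0.12, and it was 0.05 without PyMT C44 3, 0.07 without PyMT C44 2 or 4T1 3B10 1 and 0.21 without PyMT C44 1. Of 38 genes of cholesterol and fatty acid synthesis 31 were higher on average and 19 in both models, or 50% against 35.6%, with a median of 0.12 that was 0.05 without 4T1 C44 3, 0.06 without PyMT C44 1 and 0.19 without 4T1 3B10 1, and *Acat2*, of the mevalonate route, was higher by 0.40 ± 0.15. With the tumors of a model scaled to one median, the medians of these lists kept their sign, at 0.17 for heat shock, 0.12 for oxidative phosphorylation, 0.10 for ribosomal proteins and 0.11 for cholesterol and fatty acid synthesis.

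The genes lower with 3B10 without overlap in both models were fewer, and their average differences reached −1.23, against 0.75 at most among the higher genes. *Siglec1* (ENSMUSG00000027322, chr2:131069220-131086765, minus strand) encodes sialoadhesin, a sialic acid-binding receptor of a subset of macrophages. In 4T1 tumors *Siglec1* was 4.61, 3.89 and 3.76 with C44 and 2.76, 3.72 and 3.05 with 3B10, and in PyMT tumors it was 2.12, 2.25 and 2.33 with C44 and 1.20, 0.52 and 0.95 with 3B10. All 3B10 tumors lay below all C44 tumors of their model, at −1.13 ± 0.22 on average, or 0.458 of the C44 level, with a limma adjusted p of 0.581. *Tnfrsf14*, the receptor HVEM that binds LIGHT and BTLA, was 4.81, 4.83 and 4.25 in 4T1 C44 tumors and 3.26, 4.23 and 3.69 with 3B10. In PyMT tumors *Tnfrsf14* was 2.03, 1.50 and 2.15 with C44 and 1.20, 1.30 and 0.11 with 3B10. The groups were apart in both models, narrowly so in 4T1 tumors, and the average difference was −0.96 ± 0.24.

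*Ppp1r3b*, a subunit that targets protein phosphatase 1 to glycogen, had the lowest average difference among the genes without overlap. In 4T1 tumors *Ppp1r3b* was 4.17, 4.15 and 3.23 with C44 and 2.66, 3.21 and 3.05 with 3B10. In PyMT tumors it was 3.49, 1.60 and 1.64 with C44 and 0.81, 0.08 and 1.13 with 3B10, for an average of −1.23 ± 0.34. *Cp*, ceruloplasmin, the copper-carrying ferroxidase, was 8.95, 8.86 and 8.30 in 4T1 C44 and 8.20, 8.08 and 7.53 in 4T1 3B10 tumors. In PyMT tumors *Cp* was 9.99, 10.06 and 9.68 with C44 and 9.46, 9.32 and 9.51 with 3B10, and it was lower at −0.62 ± 0.14 on average. *Mr1*, which presents microbial metabolites to innate-like T cells, was lower at −0.66 ± 0.18, with −0.49 in 4T1 and −0.82 in PyMT tumors. *Col4a5*, a basement membrane collagen chain, was lower at −0.39 ± 0.11, *Itpr2*, a calcium release channel, at −0.40 ± 0.14, and *Cytip*, a regulator of leukocyte adhesion, at −0.35 ± 0.12.

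*Smpd1*, which breaks down sphingomyelin in lysosomes, was lower at −0.31 ± 0.10 without overlap in both models. Of 42 lysosome genes 36 were lower on average and 19 in both models, or 45.2% against 22.1% of all genes, with a median of −0.11 that was −0.22 in 4T1 and 0.01 in PyMT tumors. *Ctsk*, the collagen-degrading cathepsin, went the other way in this list at 0.82 ± 0.34, and it was 0.54 without 4T1 3B10 3. *Ap1b1*, of the clathrin adaptor AP-1, was lower at −0.22 ± 0.08. *C4b*, complement component 4, was chosen after its values were seen. It was 5.28, 6.05 and 5.45 in 4T1 C44 tumors and 4.86, 5.02 and 3.52 with 3B10. In PyMT tumors *C4b* was 8.57, 7.47 and 8.59 with C44 and 7.60, 6.81 and 6.09 with 3B10, so only PyMT 3B10 1 reached the range of the C44 tumors, and the average difference was −1.25 ± 0.31.

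**Figure D3:**
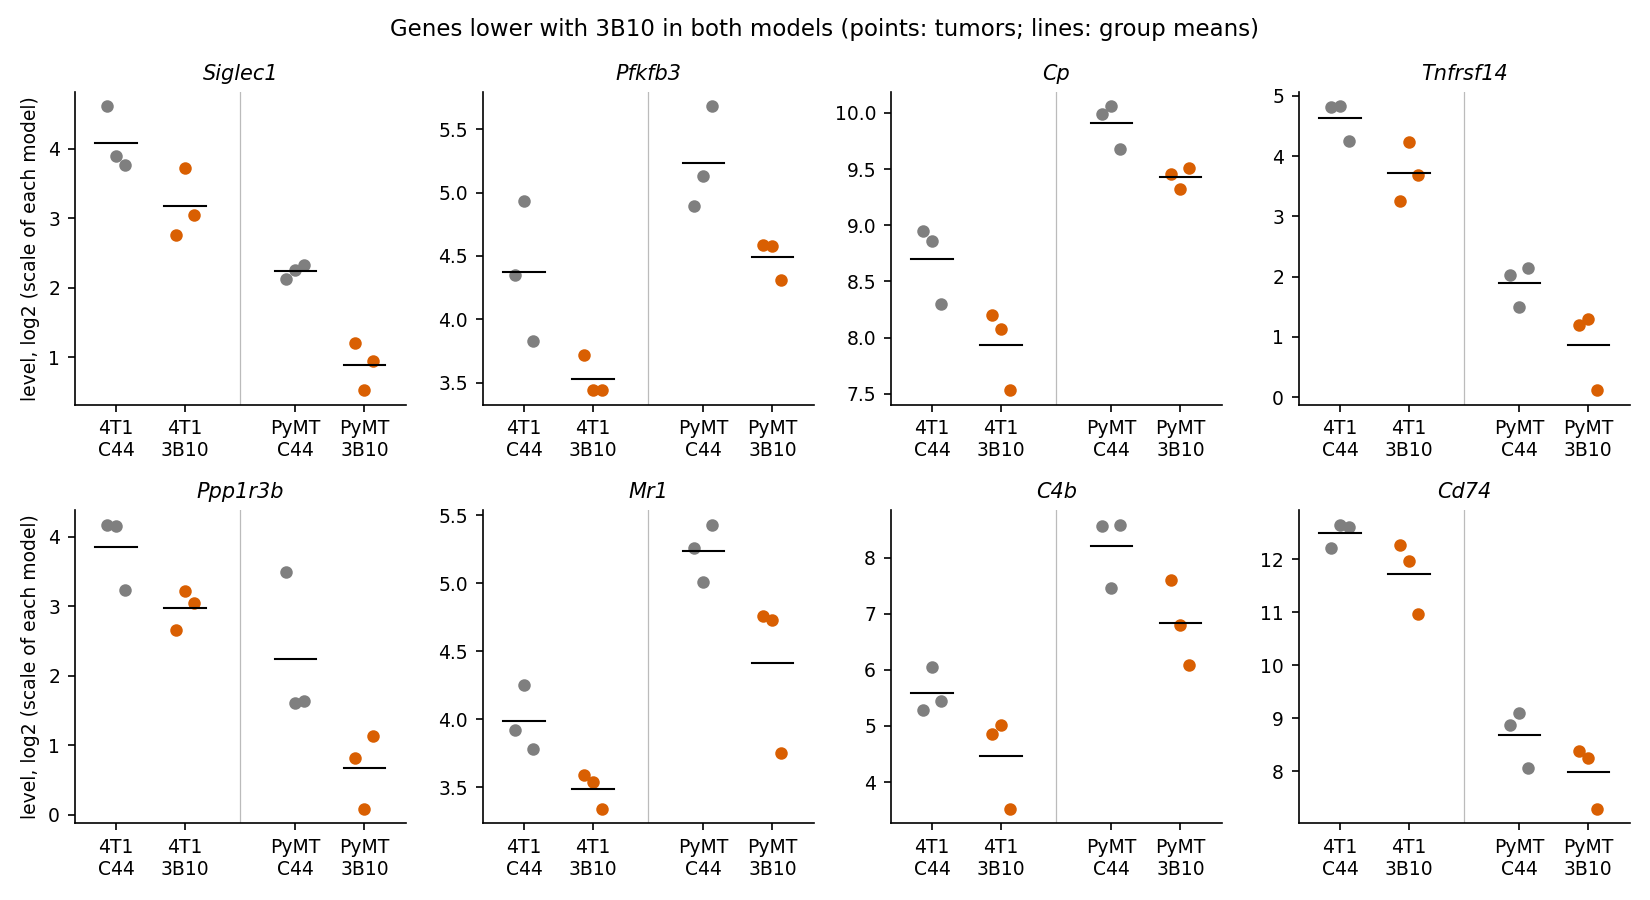
Log2 levels of 8 genes in each tumor (vertical axis), on the scale of each model, with C44 tumors in gray and 3B10 tumors in orange, 3 a group; lines are group means. The groups are apart in both models for the first 6 genes, such as *Siglec1* with −1.13 on average, and overlap in PyMT tumors for *C4b* and in both models for *Cd74*.

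Genes of glycolysis and the hypoxia response had a lower median in both models. Of 42 such genes 39 were lower on average, 30 of them in both models, or 71.4% against 22.1% of all genes, and 8 had an unadjusted p under 0.05, or 19% against 1.86%. The list median was −0.20, with −0.25 in 4T1 and −0.22 in PyMT tumors. *Pfkfb3* (ENSMUSG00000026773, chr2:11471433-11554077, minus strand) makes fructose 2,6-bisphosphate, the main activator of glycolytic flux. It was 4.35, 4.93 and 3.83 in 4T1 C44 tumors and 3.72, 3.44 and 3.44 with 3B10. In PyMT tumors *Pfkfb3* was 4.89, 5.13 and 5.68 with C44 and 4.59, 4.58 and 4.31 with 3B10. The groups were apart in both models and the average difference was −0.79 ± 0.18, or 0.578 of the C44 level.

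*Egln3*, the oxygen-sensing prolyl hydroxylase that is itself induced by HIF, was 7.68, 7.69 and 7.55 in 4T1 C44 tumors and 7.59, 6.95 and 7.44 with 3B10. In PyMT tumors *Egln3* was 7.97, 7.67 and 8.21 with C44 and 6.70, 7.66 and 7.24 with 3B10. It was lower at −0.53 ± 0.17, with an overlap through 4T1 3B10 1. Among members chosen after their values were seen, *Vegfa*, the vessel growth factor, was lower at −0.59 ± 0.27, and *Slc16a3*, the lactate exporter MCT4, at −0.91 ± 0.37. *Car9*, the carbonic anhydrase that acidifies hypoxic tumors, was 8.40, 7.27 and 7.67 in 4T1 C44 and 7.93, 6.48 and 7.40 in 4T1 3B10 tumors. In PyMT tumors *Car9* was 5.09, 4.81 and 4.96 with C44 and 3.23, 5.18 and 3.55 with 3B10. Its groups overlapped in both models, through PyMT 3B10 2 in the latter, and the average was −0.74 ± 0.33. The prolyl 4-hydroxylases *P4ha1* and *P4ha2*, which act on collagen and were also chosen after their values were seen, were lower at −0.41 ± 0.18 and −0.51 ± 0.18. *Ldha*, the most abundant member in PyMT tumors, was at −0.06 ± 0.18, between −0.18 and 0.03 without 1 tumor. *Angptl4*, a lipase inhibitor, was on the other side at 0.64 ± 0.33, and at 0.41 without PyMT C44 3. The list mean was 0.17, 0.11 and −0.29 with C44 and 0.02, −0.45 and −0.20 with 3B10 in 4T1 tumors, and 0.08, −0.12 and 0.04 with C44 and −0.42, −0.05 and −0.46 with 3B10 in PyMT tumors. The groups thus overlapped in each model, and the shift was shared by many genes rather than by all tumors.

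Of the 37 matched promoters of this list 20, or 54.1%, held ACGTG, the core of the hypoxia response element, against 19.7% of all promoters and 26.6% of those of the genes tested. Among the 17 genes lower without overlap in both models, 12 were matched, of which 1, or 8.33%, held ACGTG. *Pfkfb3* and *Car9* are shown as members that were lower on average, although the groups of *Car9* overlapped in both models. Capitals mark ACGTG or its reverse complement. *Pfkfb3* lies at chr2:11553880-11554179 on the minus strand and *Car9* at chr4:43506776-43507075 on the plus strand, with 1 match each.
Pfkfb3: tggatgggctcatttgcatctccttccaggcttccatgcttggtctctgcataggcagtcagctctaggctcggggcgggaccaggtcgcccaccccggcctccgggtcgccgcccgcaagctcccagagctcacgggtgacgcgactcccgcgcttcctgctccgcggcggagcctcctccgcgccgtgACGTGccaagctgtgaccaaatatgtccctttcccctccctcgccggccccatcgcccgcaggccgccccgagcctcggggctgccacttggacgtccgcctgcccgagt
Car9: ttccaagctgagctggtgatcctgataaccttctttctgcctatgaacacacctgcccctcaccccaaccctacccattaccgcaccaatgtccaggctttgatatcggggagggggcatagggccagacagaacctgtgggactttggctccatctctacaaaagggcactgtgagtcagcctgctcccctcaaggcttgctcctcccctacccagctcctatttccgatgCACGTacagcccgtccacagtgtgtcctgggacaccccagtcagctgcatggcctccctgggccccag

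Genes of MHC class II had a lower median in both models, and their list mean overlapped between the groups in each. All 9 tested genes of the list were lower on average, 8 of them in both models, or 88.9% against 22.1% of all genes, with a median of −0.66 that was −0.72 in 4T1 and −0.34 in PyMT tumors. Of the 9, 0 were without overlap in both models, against 0.156% of all genes, and with 9 genes a count of 0 is near that share. The other gene, *H2-DMb2*, chosen after its values were seen, was at −0.76 in 4T1 and 0.54 in PyMT tumors. *Cd74*, the invariant chain and the most abundant of them, was 12.22, 12.65 and 12.61 in 4T1 C44 tumors and 12.26, 11.96 and 10.97 with 3B10. In PyMT tumors *Cd74* was 8.87, 9.10 and 8.07 with C44 and 8.39, 8.26 and 7.29 with 3B10. The 3B10 tumors tended to the low side in both models and overlapped the C44 tumors, and the average was −0.73 ± 0.25, or 0.602 of the C44 level. *H2-Aa* and *H2-Ab1*, the chains of I-A, and *Ciita*, the coactivator that switches these genes on, were chosen after their values were seen and were at −0.71 ± 0.29, −0.66 ± 0.29 and −0.66 ± 0.33. *Ctss*, the cathepsin that trims the invariant chain, was lower at −0.48 ± 0.15. The list mean was lowest in 3B10 tumor 3 of each model, at −1.49 in 4T1 and −1.25 in PyMT tumors. The other 3B10 tumors were at −0.25 and −0.49 in 4T1 and at 0.09 and −0.24 in PyMT tumors, and the C44 tumors were at −0.30, 0.31 and −0.01 and at 0.15, 0.28 and −0.43. In whole tumors, fewer cells of a type and less RNA per cell cannot be told apart.

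Macrophage genes had a lower median in 4T1 than in PyMT tumors, a difference between models that was not tested for the list. In the same 4T1 3B10 tumors the epithelial markers had higher means. Of 43 tested genes 40 were lower on average and 23 in both models, or 53.5% against 22.1% of all genes, and 12 were lower at an unadjusted p under 0.05, or 27.9% against 1.86%. The median was −0.33, with −0.60 in 4T1 and −0.04 in PyMT tumors. The list mean was 0.10, 0.02 and −0.12 with C44 and −0.63, −0.29 and −0.66 with 3B10 in 4T1 tumors, without overlap. In PyMT tumors it was 0.07, 0.30 and −0.38 with C44 and 0.30, −0.32 and −0.46 with 3B10, and the groups overlapped. Summed off the log scale, the 44 macrophage genes in the table stood at 23704, 20051 and 23866 in 4T1 C44 and 11583, 18675 and 12602 in 4T1 3B10 tumors, led by *Lyz2*. In PyMT tumors the sum was 3341, 3048 and 2010 with C44 and 3841, 2255 and 2221 with 3B10, led by *Apoe*. The pan-macrophage markers *Csf1r* and *Adgre1* differed by −0.68 and −0.62 in 4T1 tumors and by −0.04 and −0.04 in PyMT tumors, whereas *Siglec1* differed by −0.91 and −1.34.

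Among neutrophil genes 13 of 16 were lower on average and 5 in both models, or 31.2% against 22.1% of all genes, with a median of −0.41 that was −0.63 in 4T1 and −0.08 in PyMT tumors. *Lcn2*, the siderophore-binding lipocalin of neutrophil granules and inflamed epithelium, stood at 0.501 of the C44 level on average, with −1.22 in 4T1 and −0.77 in PyMT tumors, and its average was −0.56 without 4T1 3B10 3. *S100a8*, a defining marker, differed by −0.78 in 4T1 and 0.09 in PyMT tumors, with overlap in both, and *Csf3r*, the receptor for G-CSF, at −0.70 and −0.32. *Mmp9* and *Padi4* went the other way in this list, at 0.87 ± 0.59 and 0.31 ± 0.28 on average. *Mmp9* was higher in both models, by 1.23 in 4T1 and 0.50 in PyMT tumors, and *Padi4* differed by −0.39 and 1.02. Of 26 chemokine and cytokine genes 22 were lower on average and 18 in both models, or 69.2% against 22.1% of all genes, with a median of −0.36 that was −0.26 in 4T1 and −0.25 in PyMT tumors and −0.21 on average without PyMT C44 2. *Csf3*, which encodes G-CSF, was 7.19, 6.14 and 6.48 in 4T1 C44 tumors and 6.75, 5.84 and 6.50 with 3B10. In PyMT tumors *Csf3* was 2.64, 2.13 and 1.74 with C44 and 0.10, 1.06 and 0.47 with 3B10. The groups overlapped in 4T1 tumors and were apart in PyMT tumors, and the average was −0.93 ± 0.30. *Il23a*, the p19 chain of IL-23, had the same pattern, with −0.11 in 4T1 and −1.54 in PyMT tumors.

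All 9 tested T and NK cell genes were lower on average and 4 in both models, or 44.4% against 22.1%, with a median of −0.35 that was −0.72 in 4T1 and −0.01 in PyMT tumors. The average median of this list was −0.76 with no filter on low values and −0.18 with a stricter one. *Il2rb*, a chain of the receptors for IL-2 and IL-15, was lower at −0.89 ± 0.30. Of 8 dendritic cell genes 6 were lower on average and 4 in both models, or 50%, with a median of −0.11 that was −0.05 without 4T1 3B10 3, −0.21 without PyMT C44 3 and −0.20 without PyMT 3B10 1, and the costimulatory ligand *Cd86* was lower at −0.38 ± 0.16. Of 3 tested B and plasma cell genes all were lower or level, with a median of −0.51 that was −0.33 without PyMT 3B10 3 and −0.17 without 4T1 C44 3, where *Igkc* was 8.54 against 2.00 and 2.76 in the other 4T1 C44 tumors. The single mast cell gene tested, *Kit*, was at −0.31 ± 0.24, at −0.12 without 4T1 C44 2 and at −0.13 without 4T1 3B10 3. Without the filter on low values the median of the mast cell list was 0.59.

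Interferon-response genes had a lower median in PyMT than in 4T1 tumors, which was not tested for the list. Of 67 genes 61 were lower on average and 35 in both models, or 52.2% against 22.1% of all genes, with a median of −0.22 that was −0.03 in 4T1 and −0.39 in PyMT tumors. The list mean was −0.11, −0.26 and 0.37 in PyMT C44 and −1.02, −0.32 and −0.10 in PyMT 3B10 tumors, so the groups overlapped and PyMT 3B10 1 was the lowest. Without that library the list median was −0.08, without 4T1 3B10 1 it was −0.33, and without both 4T1 C44 3 and 4T1 3B10 1 it was −0.39. *Rsad2*, the antiviral protein viperin, chosen after its values were seen, was lower at −0.81 ± 0.37 and at −0.48 without PyMT 3B10 1, and *Sp110*, a nuclear body protein, was lower at −0.53 ± 0.18. Of 23 genes of the MHC class I route 21 were lower on average and 13 in both models, or 56.5%, with a median of −0.19 that was −0.03 in 4T1 and −0.32 in PyMT tumors, −0.09 without PyMT 3B10 1 and −0.30 without 4T1 3B10 1. *H2-K1*, a classical class I heavy chain, was 10.79, 10.98 and 11.03 in 4T1 C44 and 11.23, 10.82 and 10.69 in 4T1 3B10 tumors. In PyMT tumors *H2-K1* was 9.88, 9.35 and 10.06 with C44 and 8.72, 8.75 and 9.17 with 3B10. The groups were apart in PyMT tumors only, and the difference between the models, −0.86, had a limma adjusted p of 1 over the 12 tumors.

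**Figure D4:**
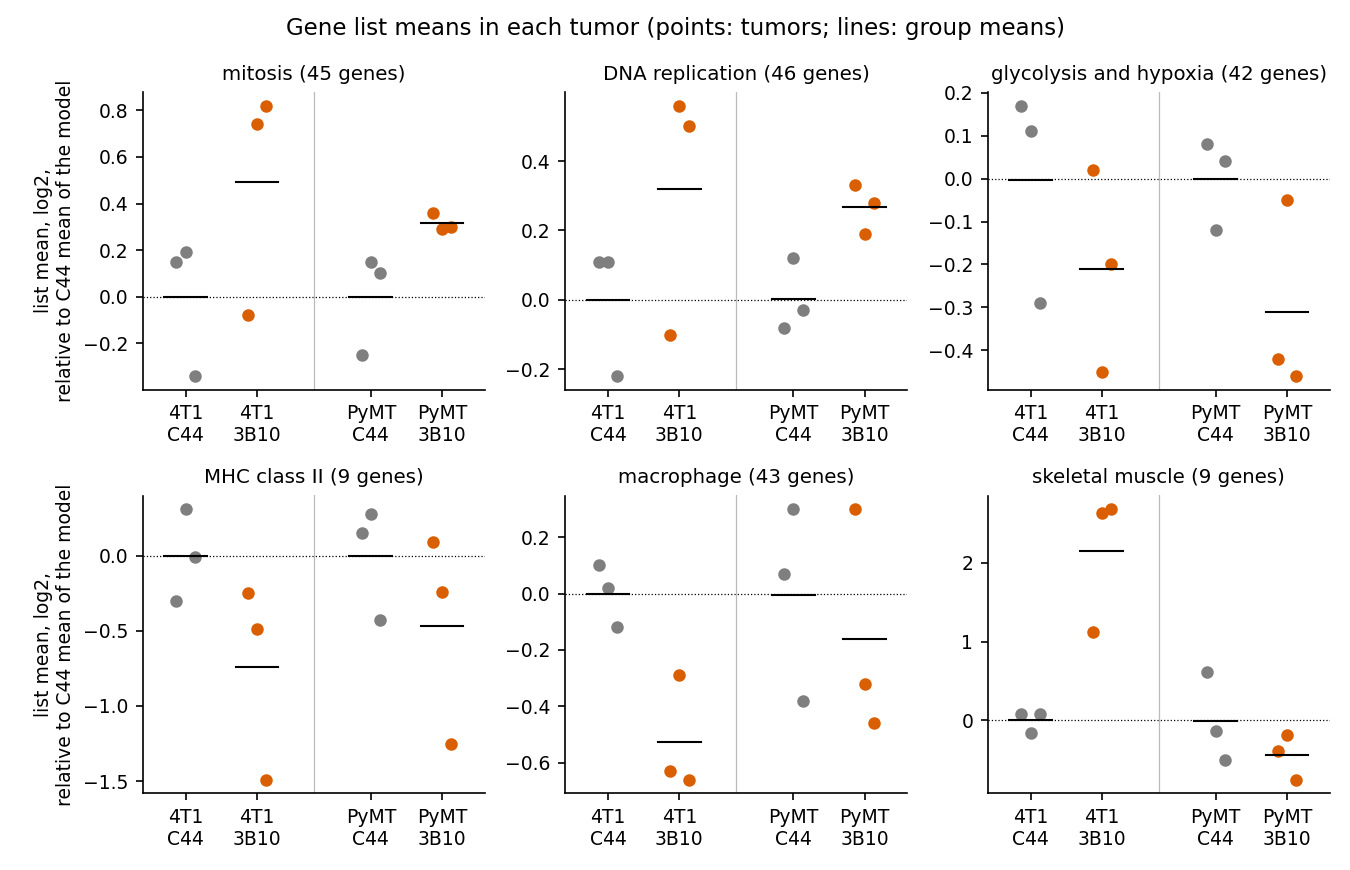
Mean log2 level of the tested genes of 6 lists in each tumor (vertical axis, zero at the C44 mean of the model), with C44 tumors in gray and 3B10 tumors in orange, 3 a group; lines are group means. Mitosis and DNA replication lie above C44 in every PyMT 3B10 tumor, macrophage genes lie below C44 in every 4T1 3B10 tumor, and skeletal muscle lies above C44 in every 4T1 3B10 tumor.

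*Ptn* (ENSMUSG00000029838, chr6:36714929-36810220, minus strand) was too low in 4T1 tumors to enter the fit. Its log2 level was −0.19, −0.65 and −0.12 in 4T1 C44 and −0.76, 0.86 and 0.37 in 4T1 3B10 tumors, near the lowest value of −0.98. In PyMT tumors *Ptn* was 2.80, 2.73 and 3.42 with C44 and 3.28, 2.95 and 4.22 with 3B10. The groups overlapped in both models, and the average difference of 0.49, which includes the low 4T1 values, had p = 0.17 in an exact two-sided permutation test over the 400 arrangements of antibody within model, whose smallest possible p is 0.005. An antibody binds the protein, so these levels do not check the treatment labels. *Ptprz1*, the receptor phosphatase, lay near the lowest value in 4T1 tumors, and in PyMT tumors it was 3.54, 3.90 and 2.66 with C44 and 2.52, 3.27 and 2.85 with 3B10, so the PyMT groups overlapped. Its average difference of −0.25, which includes the low 4T1 values, had p = 0.25 in the same permutation test.

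Of 17 tested genes of PTN, midkine and their binding partners, 11 were lower on average and 8 in both models, or 47.1% against 22.1% of all genes, with a median of −0.09. At an unadjusted p under 0.05, 2 were lower, or 11.8% against 1.86%, and 1 was higher, or 5.88% against 4.91%. Without 1 tumor this median lay between −0.15 and 0.02, and its sign was positive without 4T1 3B10 1. *Sdc3*, the syndecan best known as a PTN receptor on neurons, was 6.87, 6.82 and 6.51 in 4T1 C44 and 6.03, 6.35 and 5.71 in 4T1 3B10 tumors, without overlap. In PyMT tumors *Sdc3* was 6.92, 7.26 and 7.97 with C44 and 7.13, 6.77 and 5.56 with 3B10, where PyMT 3B10 1 lay among the C44 tumors. The average was −0.80 ± 0.25, or 0.575 of the C44 level, with a limma adjusted p of 0.629 over 12 tumors. *Gpc4*, a glypican that carries heparan sulfate, was lower at −0.21 ± 0.09, with −0.32 in 4T1 and −0.10 in PyMT tumors. *Ncl*, nucleolin, which binds PTN at the cell surface and makes ribosomes in the nucleolus, was higher by 0.22 ± 0.09, with 0.21 in 4T1 and 0.22 in PyMT tumors. Midkine, *Mdk*, differed by 0.42 ± 0.29, *Ptprs* by −0.23 ± 0.24, *Sdc1* by 0.12 ± 0.14, *Sdc4* by −0.20 ± 0.11, and *Lrp1* by −0.09 ± 0.28. Without 1 tumor *Ptprs* lay between −0.38 without PyMT 3B10 1 and −0.05 without PyMT 3B10 3, *Sdc1* between 0.02 without PyMT C44 3 and 0.19 without PyMT C44 2, and *Lrp1* between −0.34 without PyMT C44 3 and 0.04 without 4T1 3B10 1, so the sign of *Lrp1* turned. The NF-kB subunits *Rela* and *Nfkb1* differed by 0.03 ± 0.10 and −0.09 ± 0.12, with ranges of −0.04 to 0.09 and −0.20 to −0.03 without 1 tumor, and of 20 genes of NF-kB factors and their regulators 0 had an unadjusted p under 0.05 with limma, where 1.86% of all genes were lower and 4.91% higher, and 0 an adjusted p under 0.05; with 20 genes a count of 0 is near these shares. *Rel*, the subunit of lymphoid cells, had the lowest value of these at −0.61 ± 0.29. *Jun* was at 0.02 ± 0.15, between −0.08 and 0.11 without 1 tumor. Of 26 immediate early genes 17 were lower on average, or 65.4% against 42.8% of all genes, with a median of −0.08. This median lay between −0.20 without PyMT C44 3 and −0.01 without PyMT C44 2. It was −0.15 without PyMT 3B10 3 and −0.02 without PyMT 3B10 2. Among the immediate early genes *Ier3* was lower at −0.43 ± 0.13 and *Myc* higher by 0.23 ± 0.08, in both models.

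Of 28 endothelial genes 20 were lower on average, or 71.4% against 42.8% of all genes, with a median of −0.07 whose sign turned without 1 tumor, to 0.10 without 4T1 C44 2 and 0.05 without 4T1 3B10 3, and whose lowest value was −0.19 without 4T1 3B10 2. *Esm1*, a product of sprouting tip cells, was at −0.90 ± 0.39 and at −0.57 without 4T1 C44 2. Of 52 fibroblast and matrix genes 32 were higher on average and 38.5% were lower, against 42.8% of all genes, with a median of 0.05. This median lay between −0.16 without 4T1 3B10 2 and 0.23 without PyMT C44 2. It was also below zero without 4T1 C44 3, PyMT C44 3 or PyMT 3B10 1. *Pdgfra*, a fibroblast receptor, was lower at −0.48 ± 0.20. The other fibroblast markers, *Col1a1* and *Dcn*, were at 0.14 and 0.24 on average, with 0.56 and 0.66 in 4T1 and −0.29 and −0.18 in PyMT tumors. The median of 15 pericyte and smooth muscle genes was −0.05. It lay between −0.19 without 4T1 3B10 2 and 0.10 without 4T1 C44 2 and was also above zero without 4T1 3B10 1, PyMT C44 1 or PyMT 3B10 3. The median of 14 adipocyte genes was 0.09, and −0.02 without PyMT C44 3, with the lipase *Lpl* higher by 0.82 ± 0.24. The adipocyte list mean was −0.10, 0.15 and −0.05 with C44 and 0.86, 0.30 and 0.26 with 3B10 in PyMT tumors, without overlap. In 4T1 tumors the groups overlapped. The list median was 0.20 in PyMT tumors, where 11 of the 14 genes were higher. *Cfd* had the largest average difference of the list, at 2.03 ± 0.96, with 3.37 in PyMT tumors, and it enters the list mean. The marker *Fabp4* was 3.92, 3.98 and 2.30 with C44 and 4.88, 3.52 and 2.51 with 3B10 in PyMT tumors, with overlap. The part of adipocyte RNA in the PyMT results was not tested. The median of 17 genes of mesenchymal transition was −0.01 and lay between −0.10 without 4T1 3B10 2 and 0.12 without PyMT C44 2. Of 27 luminal genes 4 were lower on average, or 14.8% against 42.8%, with a median of 0.30 in 4T1 and −0.03 in PyMT tumors, and *Erbb3* was higher by 0.48 ± 0.18. Of 14 basal and squamous genes 10 were higher on average and 28.6% were lower, against 42.8% of all genes. Their median was 0.11. It was 0.00 without 4T1 3B10 1, 0.04 without 4T1 C44 1, 0.20 without PyMT C44 2 and 0.22 without PyMT 3B10 3. *Krt14*, a basal keratin, was higher by 1.52 ± 0.55. *Krt14* was 3.51, 4.70 and 3.81 in 4T1 C44 and 7.30, 6.70 and 5.09 in 4T1 3B10 tumors without overlap, and 6.34, 8.24 and 4.75 in PyMT C44 and 7.15, 6.74 and 7.45 in PyMT 3B10 tumors with overlap. Of 7 milk protein genes 5 were lower on average, or 71.4% against 42.8% of all genes. Their median was −0.35, with −0.43 in 4T1 and −0.12 in PyMT tumors. It was −0.18 on average without 4T1 3B10 3, or −0.20 without 4T1 C44 2. With no filter on low values the milk median was 0.04, and with sample quality weights it was −0.60. Within it *Spp1*, osteopontin, which macrophages also make, was lower at −0.69 ± 0.22.

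The 3 erythroid genes tested had lower means in both models, with a median of −1.20 that was −0.71 without PyMT C44 1. The summed level of the 4 erythroid genes in the table was 57.9, 53.1 and 91.5 in 4T1 C44, 92.8, 11.3 and 35.5 in 4T1 3B10, 1071, 436 and 34.4 in PyMT C44 and 157, 64.1 and 69.3 in PyMT 3B10 tumors, with *Hba-a1* the most abundant. Blood in the samples thus varied within groups, and its part in the results was not tested. Of 32 genes of the TGF-beta response 25 were lower on average, or 78.1% against 42.8% of all genes. Their median was −0.13, and −0.08 without PyMT C44 2. *Itgb8*, which activates latent TGF-beta, was lower at −0.50 ± 0.20. Of 18 circadian clock genes 15 were lower on average, or 83.3% against 42.8% of all genes. Their median was −0.18, and −0.29 without 4T1 C44 3. The repressor *Cry1* was lower at −0.28 ± 0.12. The remaining medians were −0.11 for 16 glucocorticoid response genes, or −0.01 without PyMT C44 2, −0.05 and −0.07 without PyMT C44 1 and 3 and −0.04 without PyMT 3B10 1 or 3, 0.02 for 27 p53 targets, 0.01 for 26 genes of the unfolded protein response, −0.03 for 31 of the integrated stress response and −0.01 for 35 of extracellular proteolysis. The sign of each of the last 4 turned without at least 1 tumor.

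**Figure D5:**
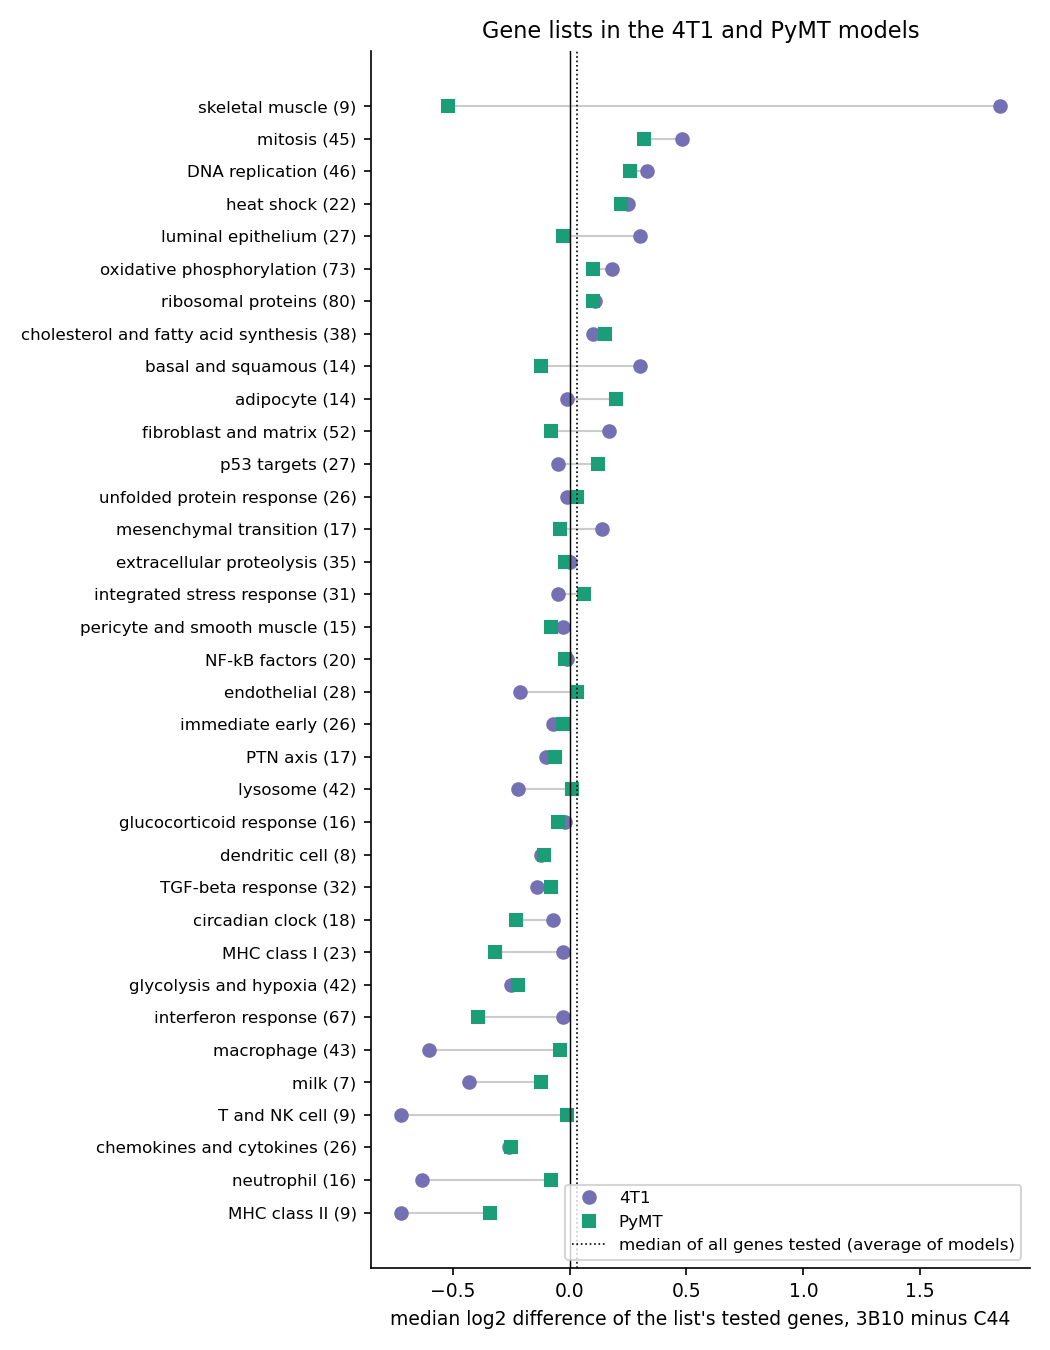
Median log2 difference between 3B10 and C44 tumors (horizontal axis) of the tested genes of each list with at least 5 of them, in 4T1 (circles) and PyMT tumors (squares), with the number of genes in brackets and a dotted line at the median of all genes tested, 0.03. Mitosis (0.48 and 0.32) and MHC class II (−0.72 and −0.34) lie on one side in both models, whereas skeletal muscle (1.84 and −0.52) does not.

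A last comparison asked whether the effect of 3B10 differed between the models. With limma, 0 genes passed an adjusted p of 0.05, the smallest adjusted p being 1, and 252 genes, or 2.31% of those tested, had an unadjusted p under 0.05. *Acta1* had the smallest unadjusted p, with 5.18 in 4T1 and −0.51 in PyMT tumors, where its groups overlapped. *Sult2b1*, a cholesterol sulfotransferase, was 3.58, 3.75 and 3.55 in 4T1 C44 and 4.50, 4.54 and 4.49 in 4T1 3B10 tumors, but 2.07, 1.72 and 1.54 in PyMT C44 and 0.18, 0.82 and 1.28 in PyMT 3B10 tumors. *Cd83*, a marker of activated dendritic and B cells, was 5.19, 4.96 and 5.44 with C44 and 4.32, 4.20 and 4.10 with 3B10 in 4T1 tumors. In PyMT tumors *Cd83* was 2.09, 2.03 and 1.51 with C44 and 3.20, 2.13 and 2.29 with 3B10. *Sult2b1* and *Cd83* moved in opposite directions without overlap within either model. *Ada*, adenosine deaminase, differed by −0.24 in 4T1 and 0.73 in PyMT tumors, *Arrdc4*, an arrestin-like protein, at −0.44 and 0.81, and *Atp13a2*, a lysosomal polyamine transporter, at −0.39 and 0.32. *Spn*, the leukocyte sialoglycoprotein CD43, differed by 0.15 and −1.54, and *Ephb6*, an ephrin receptor, by 0.56 and −0.40.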

How the data were processed

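The authors deposited 1 table of log2 expression values for 12091 genes in 24 samples, of which the 12 tumors with C44 or 3B10 were used, 3 in each of 4 groups. According to their processing notes the authors aligned reads to mm10 (GRCm38) with HISAT2, counted them with featureCounts and used edgeR and limma. Their publication also names StringTie. The step that put the deposited log2 values of 4T1 tumors on a length-dependent scale is not stated. PyMT reads were recovered by taking the lowest value of a sample as no reads with a fixed offset, and 100% of them were whole within 0.01.

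Genes were tested with limma 3.58.1 in R 4.3.3 (lmFit, eBayes with trend and robust), with tumor model as a block and treatment as the term of interest, and Benjamini-Hochberg adjustment over 10890 genes. A gene was tested where its value off the log scale was at least 1 above the lowest of the sample in at least 3 of 6 tumors of each model, and 1201 genes were left out. The difference between models was the model by treatment term, and each model was also fitted alone: limma gave 0 genes at an adjusted p under 0.05 in 4T1, with 669 at an unadjusted p under 0.05, and 0 in PyMT, with 288. The fits were tested on simulated data. Sequences were searched in Python 3.11.15, numpy 2.4.6 fitted the slope on exon length, and matplotlib 3.10.9 drew the plots.

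The samples, the 38 gene lists and the rule for naming genes were chosen with earlier results of these data known. The rule names genes with an adjusted p under 0.05, the 12 largest differences in each direction among genes at an unadjusted p under 0.05 without overlap in both models and with a mean of at least 1, PTN and its partners with NF-kB subunits and *Jun*, the 2 members of each list with the smallest p in each direction and its most abundant member in PyMT tumors, and the 4 genes in each direction with the smallest p for the difference between models. Cell type markers and genes described as chosen after their values were seen were added. Values after ± are standard errors. Gene positions are from GENCODE M21 on GRCm38, and promoters are from RefSeq on GRCm38.p6.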

Additional observations from a re-analysis of the deposited data

Results flagged for a closer look

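The samples of the E0771 and E0771-LG mammary cancer lines, with a control or a PTN short hairpin, were not part of the 12 tumors, and lists higher with 3B10 in tumors were higher with the PTN hairpin in some cultures and not in others. The mean of the mitosis list was higher with the PTN hairpin by 0.21 in E0771 and by 0.26 in E0771-LG cells, with every PTN hairpin culture above every control culture. The mean of the DNA replication list was higher by 0.12 in E0771-LG cells, and that of the heat shock list by 0.19 in E0771 cells, again without overlap. The groups overlapped for DNA replication in E0771 cells, at 0.07, and for heat shock in E0771-LG cells, at 0.22. Oxidative phosphorylation differed by 0.01 in E0771, with overlap, and by 0.56 in E0771-LG cells, without, and ribosomal proteins by 0.05, with overlap, and 0.65, without. Cholesterol and fatty acid synthesis was higher by 0.32 in E0771 and differed by −0.33 in E0771-LG cells, both without overlap. Of lists lower on average in tumors, glycolysis and hypoxia differed by 0.02 in each line, with overlap. MHC class II differed by 0.44 in E0771 and −0.08 in E0771-LG cells, both with overlap. Macrophage genes differed by 0.37, without overlap, and 0.31, with overlap. Interferon response differed by −0.60 and −1.05, both without overlap. These differences, each between groups of 3 cultures, were not tested.

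Some genes had opposite or unequal 3B10 effects in the models. The effect in PyMT minus that in 4T1 tumors was −1.90 for *Sult2b1*, 0.96 for *Ada*, 1.66 for *Cd83*, −0.95 for *Ephb6*, 0.71 for *Atp13a2* and 1.40 for *Padi4*. For the muscle genes *Atp2a1* and *Mb* it was −4.42 and −2.26, and for the interferon-induced *Oasl2* it was −1.39. The difference between models was tested with limma over the 12 tumors, and each of these genes had an adjusted p of 1.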

How the results depend on the processing

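Under all 25 alternatives limma gave 0 genes for the shared effect at an adjusted p under 0.05, and without any 1 tumor the number of genes lower at an unadjusted p under 0.05 lay between 126 and 343, against 203. It was 126 without 4T1 C44 replicate 2, 343 without 4T1 C44 replicate 3 and 313 without PyMT 3B10 replicate 1. The number of genes higher lay between 341 and 781, against 535, and was 341 without 4T1 3B10 replicate 3. With sample quality weights 521 genes were lower and 1129 higher, and the smallest adjusted p was 0.053. The cause was not tested.

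Without any 1 tumor, 20 to 64 genes were lower without overlap in both models, against 17, and 89 to 266 were higher, against 78; fewer samples make this easier by construction. The lower count was 59, 35 and 32 without 4T1 C44 replicate 3, 4T1 3B10 replicate 1 and 4T1 3B10 replicate 2, 37, 33 and 43 without PyMT C44 replicates 1, 2 and 3, and 64, 30 and 29 without PyMT 3B10 replicates 1, 2 and 3. The higher count was 157 and 266 without 4T1 C44 replicate 3 and 4T1 3B10 replicate 1, 245 and 121 without PyMT C44 replicates 1 and 2, and 129, 129 and 132 without PyMT 3B10 replicates 1, 2 and 3. Without both 4T1 C44 replicate 3 and 4T1 3B10 replicate 1, chosen after seeing the data, it was 79 lower and 335 higher. Quantile normalization within each model gave 29 lower and 61 higher, and the cause was not tested.

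For the difference between models, the number of genes at an adjusted p under 0.05 from limma was 0 to 1 without any 1 tumor. The 1 gene was *Tbx15*, with −3.51 and an adjusted p of 0.032 without PyMT 3B10 replicate 2. Nothing pairs mice with the same number. With a replicate block, 258 genes were lower and 477 higher at an unadjusted p under 0.05, and the deviations of tumors with the same number correlated across genes at −0.364, 0.446 and −0.282 in 4T1 and −0.034, 0.113 and 0.214 in PyMT tumors.

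Of the named genes, 97 had an unadjusted p under 0.05, and 0 of them had another sign under any alternative. Of the other 119 named genes, 31 had another sign under at least 1 alternative. The median of the mitosis list ranged from 0.31 to 0.53, that of DNA replication from 0.23 to 0.38, that of glycolysis and hypoxia from −0.27 to −0.17 and that of MHC class II from −0.76 to −0.46. Some medians of short lists moved with the filter on low values: that of T and NK cell genes was −0.76 without it and −0.18 with a stricter one, against −0.35, that of milk genes 0.04 without it, against −0.35, that of mast cell genes 0.59 without it, against −0.31, and with the stricter filter that of dendritic cell genes was −0.02, against −0.11, and that of chemokines and cytokines −0.19, against −0.36. With sample quality weights the median of B and plasma cell genes was −0.01, against −0.51. Without both 4T1 C44 replicate 3 and 4T1 3B10 replicate 1 that of neutrophil genes was −0.25, against −0.41. The depth of the 4T1 libraries is unknown.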

Other observations

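In the cultured E0771 lines, which hold no leukocytes, *Cd74* had a mean log2 level of −0.61 in E0771 and −0.88 in E0771-LG control cultures. *Spc24* had a mean of 5.07 in E0771 and 5.16 in E0771-LG control cultures, and of 5.22 and 5.62 with the PTN hairpin. *Ptn* had a mean of 2.45 in E0771 and 3.97 in E0771-LG control cultures, and of 0.05 and 1.26 with the hairpin.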
